A study of Mus musculus with 12 samples.

Results

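The genes described here are 53 listed genes of the interferon response and of antigen presentation, found among the 20989 loci of the deposited expression files by their gene symbols, each at 1 locus. Of the 53, 33 reached the mean level needed for testing (1 FPKM over the 12 libraries, where FPKM is a read level scaled to transcript length and to the depth of the library), and the other 20 are given by their levels. Interferons are secreted proteins that bind receptors on the cell surface. Type I interferons signal through the receptor pair Ifnar1 and Ifnar2 and a complex that includes Stat2 and Irf9, which binds the interferon-stimulated response element (ISRE) of target promoters, while interferon gamma acts at the gamma-activated site (GAS). The target genes encode sensors of foreign nucleic acid, proteins that block the spread of viruses, and the MHC class I pathway, which displays peptides from inside the cell to T cells. In the healthy brain most of these genes are expressed at a low level, in microglia, endothelial cells and other cells.

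Auditory cortex was taken from acute brain slices of C57bl6/J mice at 4 weeks of age, and poly-A RNA was sequenced from 12 hemispheres of 6 mice. Coronal slices of 350 µm were split at the midline and rested for 45 min in artificial cerebrospinal fluid (aCSF), after which 1 hemisphere of each mouse spent 1 h in fresh aCSF (control, n = 6) and the other 1 h in cocktail aCSF (n = 6). The cocktail held 50 µM bicuculline methiodide (a blocker of GABA-A receptors), 100 µM norepinephrine, 50 µM carbamoylcholine (an agonist of acetylcholine receptors), 100 µM dopamine, 100 µM serotonin and 40 µM ascorbic acid, so that the agents cannot be told apart. The study used it to drive neuronal activity, and its methods add a further hour of rest in aCSF for both hemispheres, which the sample labels do not mention. All hemispheres, controls included, had been cut and kept in a bath, and no library came from uncut tissue. The comparison asks which of these genes differed in level between the treated and the untreated hemisphere of the same mouse.

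The number of reads on genes was 10600305 to 19768349 per library. The control library of mouse 1 stood apart: it was the deepest, had the lowest summed FPKM (290155) and a mean correlation of 0.985 with the other control libraries, where the other 5 had 0.991 to 0.992. Results that rest on mouse 1 are therefore given without it as well. All 8 markers of cortical excitatory neurons had a mean of at least 3.37 FPKM, as the tissue label requires. In bulk tissue, fewer cells of a type and less RNA per cell cannot be told apart.

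Because interferon factors act through elements in the promoters of their targets, the 200 bases upstream of the transcription start are printed for 7 genes: 5 whose level was lower in the cocktail and whose promoter holds an ISRE core, Irf8, which was lower and holds a pair of GAS matches, and B2m, which holds an ISRE core and did not pass the test. Sequences are from RefSeq (GRCm38.p6, the build called mm10), 5′ to 3′ on the strand of the gene. Capitals mark the ISRE core (GAAANNGAAA or its reverse complement, N being any base), except in Irf8, where they mark GAS matches (TTCNNNGAA, which reads the same on both strands).
Ifit1, chr19:34640689-34640888, plus strand: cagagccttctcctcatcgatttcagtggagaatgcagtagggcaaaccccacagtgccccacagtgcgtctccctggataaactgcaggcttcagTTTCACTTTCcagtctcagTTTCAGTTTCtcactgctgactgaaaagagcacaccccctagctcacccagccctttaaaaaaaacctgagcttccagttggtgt
Ifit3, chr19:34583329-34583528, plus strand: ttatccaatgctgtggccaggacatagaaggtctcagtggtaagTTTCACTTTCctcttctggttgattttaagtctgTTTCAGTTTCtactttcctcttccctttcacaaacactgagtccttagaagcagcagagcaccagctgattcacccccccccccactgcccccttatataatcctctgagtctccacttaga
Rsad2, chr12:26456453-26456652, minus strand: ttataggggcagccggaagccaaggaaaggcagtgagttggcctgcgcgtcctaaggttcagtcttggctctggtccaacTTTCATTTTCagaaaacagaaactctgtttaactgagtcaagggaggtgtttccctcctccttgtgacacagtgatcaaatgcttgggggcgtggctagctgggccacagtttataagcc
Isg15, chr4:156200819-156201018, minus strand: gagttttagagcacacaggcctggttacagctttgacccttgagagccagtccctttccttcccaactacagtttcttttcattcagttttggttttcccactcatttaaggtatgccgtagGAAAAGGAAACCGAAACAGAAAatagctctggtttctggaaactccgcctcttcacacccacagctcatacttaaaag
Gbp2, chr3:142620463-142620662, plus strand: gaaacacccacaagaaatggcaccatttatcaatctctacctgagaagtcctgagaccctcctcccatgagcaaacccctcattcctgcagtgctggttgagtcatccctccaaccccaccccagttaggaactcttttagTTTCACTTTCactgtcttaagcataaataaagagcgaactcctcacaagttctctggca
Irf8, chr8:120736158-120736357, plus strand: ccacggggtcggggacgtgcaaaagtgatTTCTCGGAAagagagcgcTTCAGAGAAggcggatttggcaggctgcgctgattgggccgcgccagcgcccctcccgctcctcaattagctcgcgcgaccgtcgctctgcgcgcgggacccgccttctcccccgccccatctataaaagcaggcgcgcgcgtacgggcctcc
B2m, chr2:122147487-122147686, plus strand: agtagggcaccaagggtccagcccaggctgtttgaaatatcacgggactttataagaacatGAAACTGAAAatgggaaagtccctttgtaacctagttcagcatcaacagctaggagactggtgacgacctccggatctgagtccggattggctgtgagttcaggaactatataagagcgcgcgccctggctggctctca

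Promoter windows from 250 bases before to 50 after the start were matched for 44 of the 53 genes. An ISRE core lay in the windows of 17 of the 44 (38.6%), beside 3.44% of all 32851 windows searched, which do not cover every chromosome. Of the 7 genes called lower below, 5 held one: Ifit1 and Ifit3 held 2 copies each, Isg15 held 3 overlapping copies between 78 and 57 bases before the start (positions -78 to -57), and Rsad2 and Gbp2 held 1 each. A GAS match lay in 13 of the 44 windows (29.5%), beside 8.30% of all, and Irf8 was the only called gene with one. The NF-kappaB core (GGGANNTTCC, both strands) lay in 4 windows (9.09%), beside 1.47% of all, namely those of Ifit2, Ifitm3, Gbp2 and B2m. In B2m it ended 117 bases before the start (-117), next to the ISRE core. None of the motifs was found in the window of Irf7. A match is a run of letters and not a measured binding site. The plot of motif positions shows the 25 genes with at least 1 match.

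**Figure D1:**
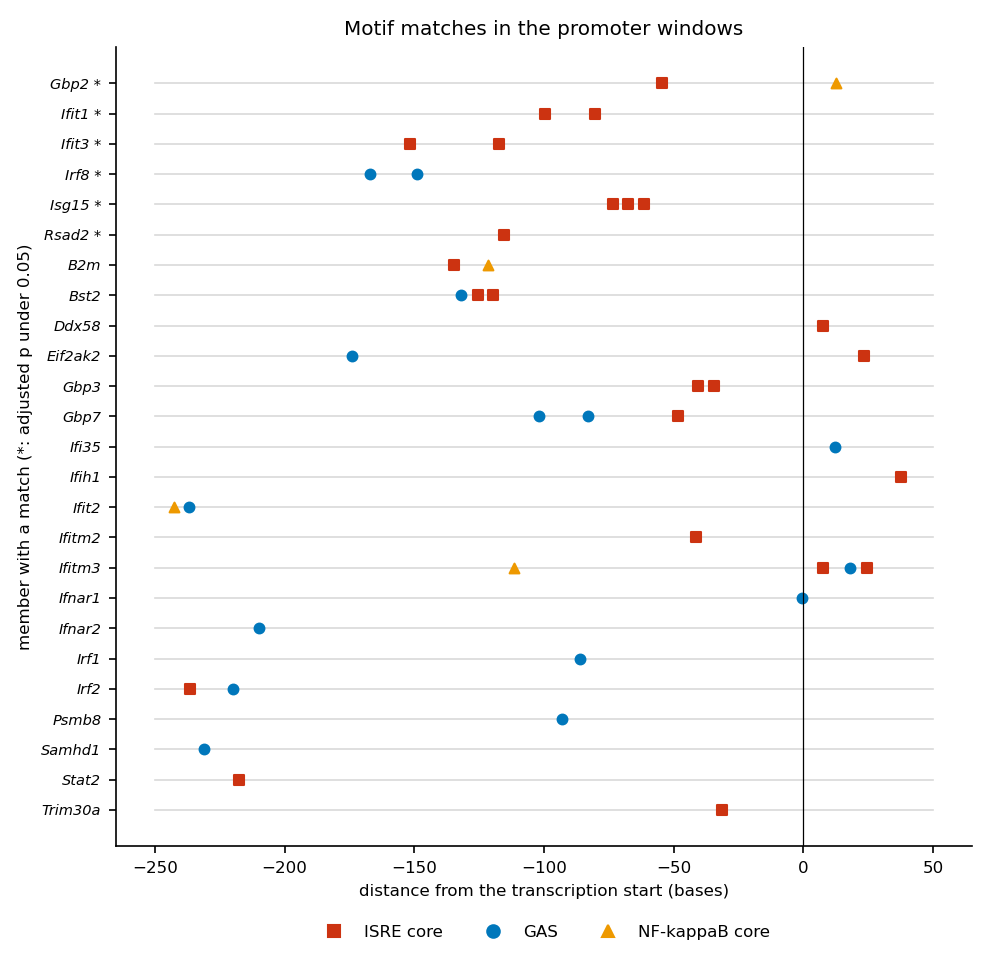
Position of ISRE core (squares), GAS (circles) and NF-kappaB core matches (triangles) relative to the transcription start, in bases, in the promoter windows of members with a match, with the genes called lower (asterisks) at the top. The ISRE matches of the 5 called genes that hold one lie between 156 and 50 bases upstream (positions -156 to -50), and matches also occur in genes that were not called, such as B2m, Bst2 and Gbp3.

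After the cocktail, 7 of the 33 genes tested were lower and 0 were higher. The 7 were the antiviral effectors Rsad2, Ifit1 and Ifit3, the ubiquitin-like modifier Isg15, the guanylate-binding protein Gbp2, and the transcription factors Irf7 and Irf8, and their mean levels in the control were 1.45 to 2.39 times those in the cocktail. None of the 6 MHC class I and antigen processing genes tested passed. Each gene was read from 1 limma fit over the 12032 loci tested, on log2(FPKM + 1) with the mouse in the model and Benjamini-Hochberg adjusted p-values under 0.05 called, and fold changes are on that scale, which understates the change of genes near 1 FPKM. Over all loci, 33 were called lower (0.274%) and 147 higher (1.22%). At these shares most small groups of genes would have 0 called, so a count of 0 in a small group says little about it. At an unadjusted p under 0.05, 12 members were lower and 3 higher, beside 2.8% and 5.24% of all loci. Of the 12, Isg15, Gbp3 and Tap1 passed the filter through their control libraries, with cocktail means under 1 FPKM, so the filter favours them. A voom fit on the recovered reads called 5 members lower and 0 higher, beside 0.269% and 1.07% of the loci in that fit. Its log2 fold changes add no 1 to the FPKM, and they were -1.06 for Ifit1, -0.87 for Isg15, -0.70 for Ifit3, -0.63 for Irf8 and -0.58 for Irf7, each more than 1.5 times the value given here, with Isg15 and Irf7 not called.

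The median log2 fold change of the 33 members was -0.09, with 22 of them below 0, beside a median of 0.01 and 45.6% below 0 over all loci tested. Of these 22, Isg15, Gbp3, Psmb8, Tap1 and Xaf1 had cocktail means under 1 FPKM and passed the filter through their control libraries. Without the filter on low values all 53 could be fitted, and 40 of the 53 were below 0, with a median of -0.09, beside 46.5% of all 17477 loci. In that fit 4 members were called lower (Ifit1, Ifit3, Irf8 and Rsad2) and 0 higher, while over all loci 0.143% were called lower and 0.561% higher. With mouse 1 left out, 5 of the 33 were called lower, namely Rsad2, Ifit1, Ifit3, Irf8 and Gbp2. With the mouse dropped from the model, 2 were called, Ifit3 and Irf8.

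**Figure D2:**
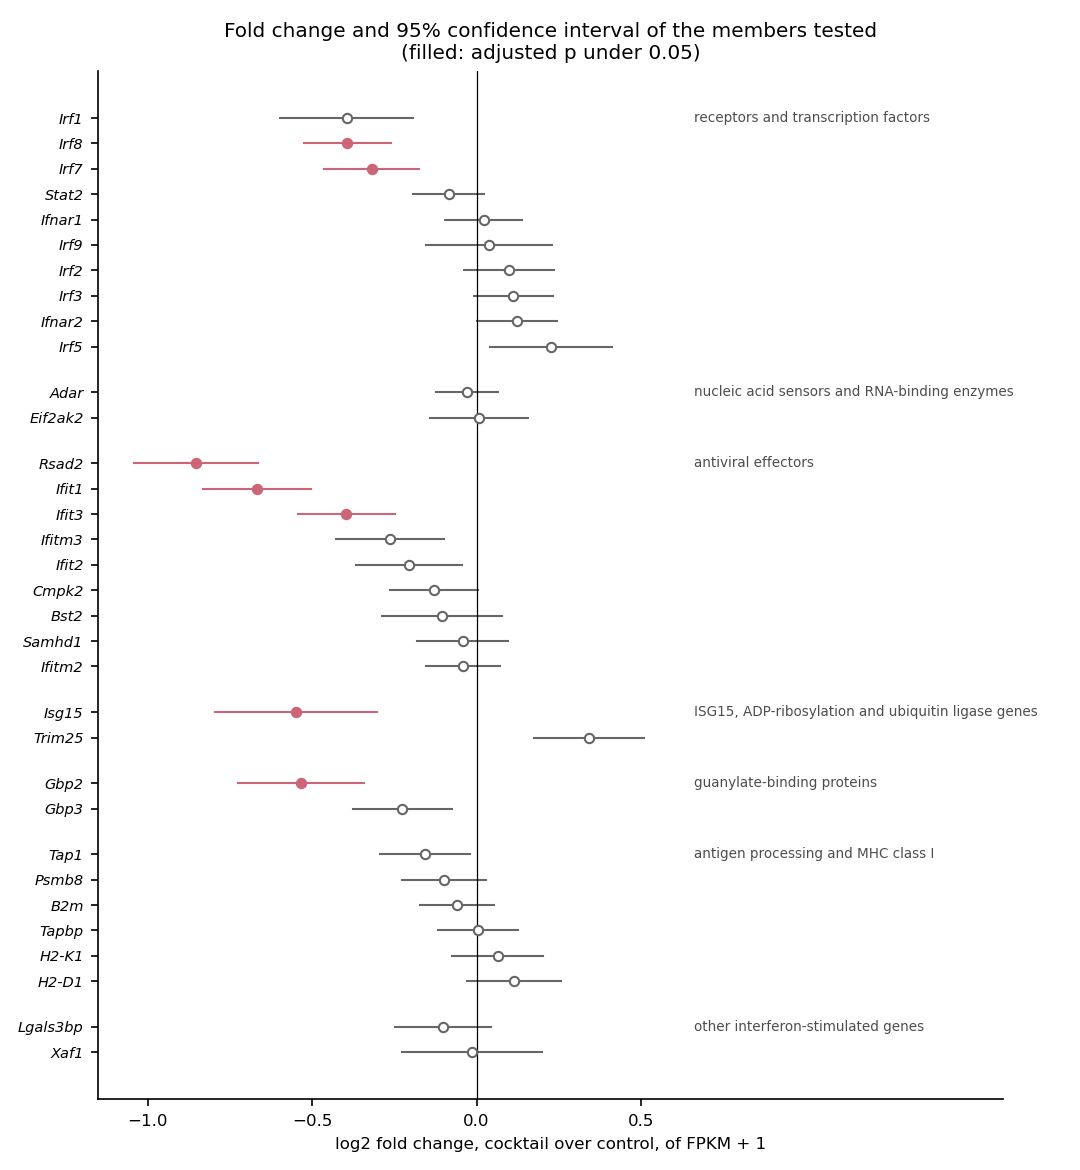
Log2 fold change (cocktail over control, FPKM + 1) with its 95% confidence interval for the 33 members tested, arranged by role, with filled points for adjusted p under 0.05. The 7 filled points lie between -0.85 (Rsad2) and -0.32 (Irf7), the antiviral effectors all lie below 0, and the MHC class I group lies between -0.16 and 0.11.

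The genes covered a wide range of levels per transcript length. B2m, the invariant light chain of MHC class I, was the highest, at 82.0 ± 4.63 FPKM in control and 79.0 ± 9.36 in cocktail libraries (SD, n = 6 each). It was followed by Adar, which edits adenosines of double-stranded RNA, at 40.3 ± 1.42 and 39.5 ± 1.35 FPKM, a pair of values that differed by less than their spread. The heavy chain genes H2-D1 and H2-K1 came next, with means of 10.5 to 14.7 FPKM. The genes called lower sat in the low range of the list, between 1.67 and 3.38 FPKM in control libraries, and Zbp1, a sensor of Z-form nucleic acid, was the lowest at 0.0694 FPKM over the 12 libraries.

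**Figure D3:**
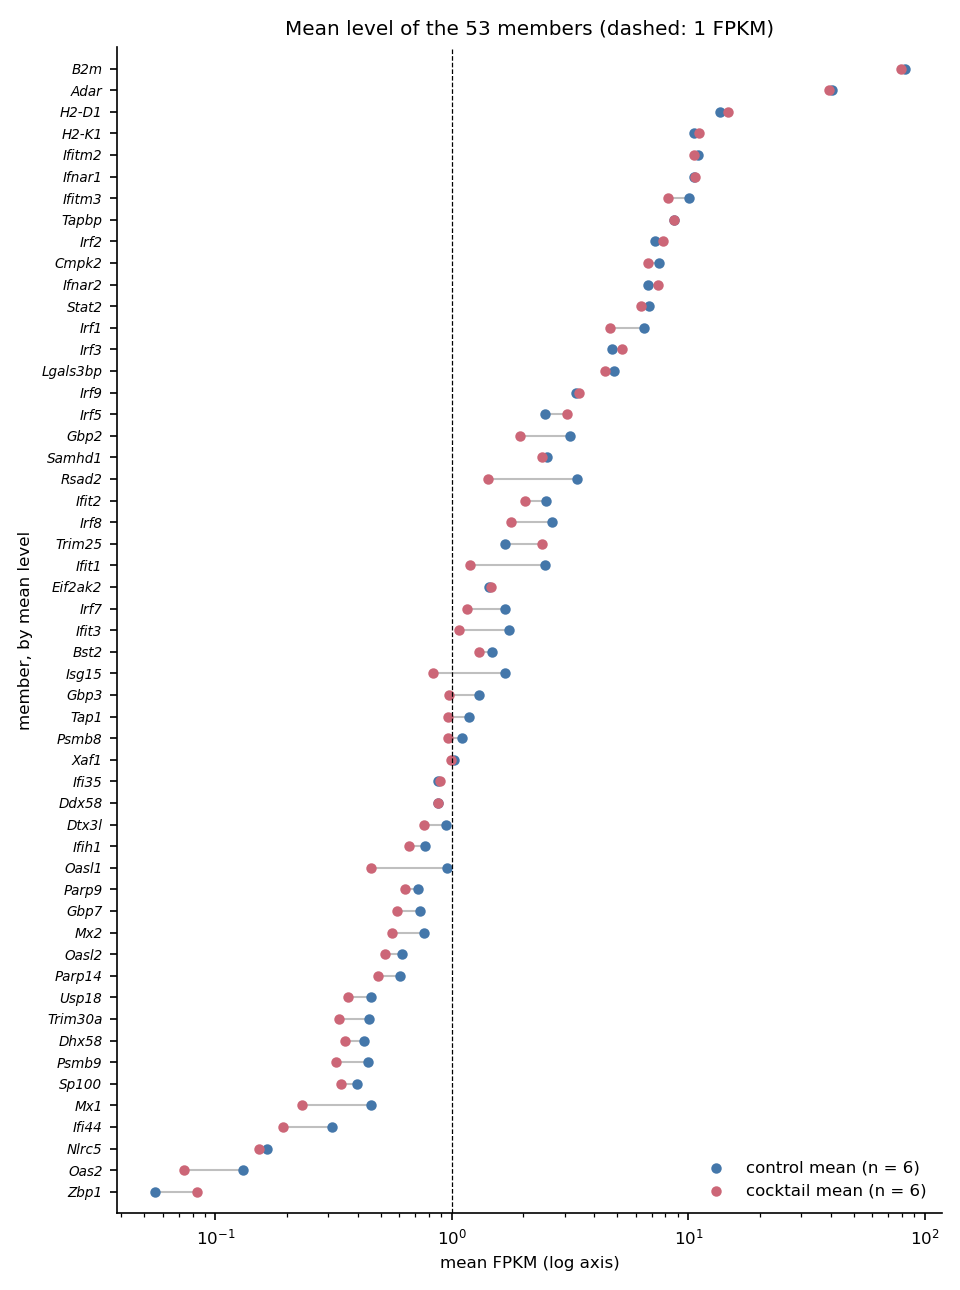
Mean FPKM (log axis) of the 53 members in control and cocktail libraries (n = 6 each), ordered by the mean of both groups, with the dashed line at the level of 1 FPKM required for testing. B2m and Adar stand at the top with both groups nearly coinciding. Among members with a mean of at least 1 FPKM the widest gaps are those of Rsad2, Ifit1, Isg15 and Gbp2, each with the cocktail mean to the left. Below that level Oasl1, Mx1 and Oas2 have wider gaps than Gbp2, in the same direction.

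Ligand transcripts were at or near 0. Of 14 interferon genes in the files, 9 were listed at 0 in every library, among them Ifna1, Ifna2 and Ifna4. The highest was Ifnb1, interferon beta, with 0.14, 0, 0.51, 0.06, 0.25 and 0.42 FPKM in the control libraries of mice 1 to 6 and 0, 0, 0.29, 0, 0 and 0.05 in the cocktail libraries of the same mice. It was lower in the cocktail in 5 mice and at 0 in both hemispheres of the other one, and it could be fitted only without the filter, where it was not called. Ifng was above 0 in 1 library, at 0.046 FPKM.

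The receptor genes did not pass the test. Ifnar1 was 9.36 to 11.7 FPKM in control and 10.5 to 11.1 in cocktail libraries (log2 fold change 0.02, SE 0.054). Ifnar2 was 5.77 to 7.26 and 6.78 to 8.45 FPKM (0.12, SE 0.056, limma adjusted p = 0.62). Of the factors that carry the signal, Stat2 was lower in all 6 mice by a small amount (-0.09, SE 0.049, adjusted p = 0.751), and Irf9 was at 3.35 ± 0.429 and 3.46 ± 0.4 FPKM. For both, the values of the groups overlapped.

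Irf8, a factor needed for microglia and other myeloid cells, fell in every mouse. Its level was 2.37, 2.92, 2.52, 3.12, 2.5 and 2.45 FPKM in the control libraries of mice 1 to 6, and 1.63, 1.61, 1.76, 2.05, 1.72 and 1.87 in the cocktail libraries. The lowest control value lay above the highest cocktail value, so the groups did not overlap. The log2 fold change was -0.39 (SE 0.06, limma adjusted p = 0.00476). Irf8 is at chr8:120736358-120756692 (mm10), and 68 to 166 reads per library lay behind these values.

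Irf7, the factor that amplifies the type I interferon response, was 1.08, 1.62 and 2.39 FPKM (lowest, median and highest) in control libraries and 0.524, 1.15 and 1.62 in cocktail libraries. Mouse 6 had the lowest value of both groups, and the groups overlapped, although each mouse was lower after the cocktail. The log2 fold change was -0.32 (SE 0.066, limma adjusted p = 0.035), on 15 to 102 reads per library. The call was lost when any of mice 1, 2, 4, 5 or 6 was left out (adjusted p of 0.0991, 0.0823, 0.134, 0.104 and 0.104), and the fold change without mouse 1 was -0.29. Over the alternatives run, the adjusted p of Irf7 ranged from 0.0201 to 0.7, the last without the mouse in the model.

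Irf1, a factor induced by interferon gamma, did not pass the test, with a log2 fold change of -0.39 (SE 0.092, limma adjusted p = 0.071). It was 4.72, 6.55 and 8.56 FPKM (lowest, median and highest) in control and 3.47, 4.42 and 6.32 FPKM in cocktail libraries. Each mouse was lower after the cocktail, most of all mouse 6, which went from 8.56 to 3.9 FPKM. Among the other factors, Irf5, which acts downstream of Toll-like receptors, was 2.48 ± 0.657 and 3.05 ± 0.556 FPKM, with a log2 fold change of 0.23 (adjusted p = 0.429), which was 0.14 without mouse 4 (adjusted p = 0.913, the range over its alternatives being 0.36 to 0.999). Irf2, which competes with Irf1 for its sites, and Irf3, which acts downstream of nucleic acid sensors, had log2 fold changes of 0.10 and 0.11 with adjusted p-values of 0.783 and 0.674.

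Of the 6 nucleic acid sensors and RNA-binding enzymes, only Adar and Eif2ak2 reached the level for testing, and 0 were called by limma, also at an unadjusted p under 0.05 and with voom. Eif2ak2, the kinase PKR that halts translation on binding double-stranded RNA, was 1.44 ± 0.118 FPKM in control and 1.46 ± 0.257 in cocktail libraries. The RIG-I family genes Ddx58, Ifih1 and Dhx58 had means of 0.353 to 0.876 FPKM. A part of the exons of Adar (22% of their bases) overlaps Chrnb2 on the opposite strand, and the strand setting of the FPKM estimate is not given in the sources used here.

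The antiviral effectors contained the largest falls. All 9 that were tested lay below 0, with a median log2 fold change of -0.20, and 3 were called. Without the filter all 14 lay below 0, with a median of -0.19 beside 0.0045 over all loci, and the same number was called. This group holds enzymes and membrane proteins that act on viral RNA, nucleotides or entry.

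Rsad2, which encodes viperin, a radical SAM enzyme that makes a chain-terminating nucleotide, had the largest fall of the list. It was 4.32, 2.64, 4.31, 5.01, 1.41 and 2.62 FPKM in the control libraries of mice 1 to 6, and 2.03, 0.935, 2.05, 2.14, 0.786 and 0.555 in the cocktail libraries. Mouse 5 had the lowest control value, below 3 of the cocktail values, so the groups overlapped, but within each mouse the cocktail hemisphere was lower. The log2 fold change was -0.85 (SE 0.086, limma adjusted p = 0.000191), and the control mean was 2.39 times the cocktail mean. The gene is at chr12:26442743-26456452 on the minus strand, with 40 to 378 reads per library and no exon shared with another gene. Without mouse 1 or any other single mouse it was still called, and the call was lost without the mouse in the model (adjusted p = 0.129, the highest of its alternatives, the lowest being 0.000118).

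Ifit1, Ifit2 and Ifit3 lie side by side on chromosome 19 and encode proteins with tetratricopeptide repeats, of which Ifit1 binds RNA whose cap lacks a methyl group. Ifit1 was 2.74, 2.24, 3.42, 3.5, 1.29 and 1.71 FPKM in the control libraries of mice 1 to 6, and 1.67, 0.858, 2.01, 1.28, 0.614 and 0.698 in the cocktail libraries. The groups overlapped, with mice 5 and 6 low in both, and the cocktail hemisphere was the lower one in each mouse. The log2 fold change was -0.67 (SE 0.075, limma adjusted p = 0.000439), and it was still called without any single mouse but not without the mouse in the model (adjusted p = 0.154, where the range over its alternatives began at 0.000185).

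Ifit3 was 1.32, 1.66 and 2.2 FPKM (lowest, median and highest) in control and 0.94, 1.04 and 1.31 in cocktail libraries. The lowest control value (mouse 2) lay just above the highest cocktail value (mouse 1), so the groups did not overlap. Its log2 fold change was -0.40 (SE 0.068, limma adjusted p = 0.0103), with adjusted p-values of 0.0534 without mouse 3 and 0.0557 without mouse 4, the highest of its alternatives, against a lowest of 0.00488. Of its 50-base windows, 51.2% also occur in another gene, mostly Ifit3b, so that the level of Ifit3 is uncertain. Ifit2 was 2.17 to 3.23 FPKM in control and 1.86 to 2.31 in cocktail libraries and did not pass (-0.20, SE 0.074, adjusted p = 0.391).

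The promoter stretches printed above hold a pair of ISRE cores in both Ifit1 and Ifit3, and none lay in the window of Ifit2. Among the other effectors, Ifitm3, which blocks the fusion of enveloped viruses, was 10.0 ± 1.67 FPKM in control and 8.18 ± 1.46 in cocktail libraries (-0.26, adjusted p = 0.173). It was lower in 5 of 6 mice and higher in mouse 3. Cmpk2, a mitochondrial nucleotide kinase next to Rsad2, had a log2 fold change of -0.13, Bst2 (tetherin) of -0.11, and Samhd1, which breaks down dNTPs, and Ifitm2 of -0.04 each. Nearly 1 in 2 windows of Ifitm2 (48.5%) occurs also in Gm45717, a gene model that overlaps it on the same strand.

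**Figure D4:**
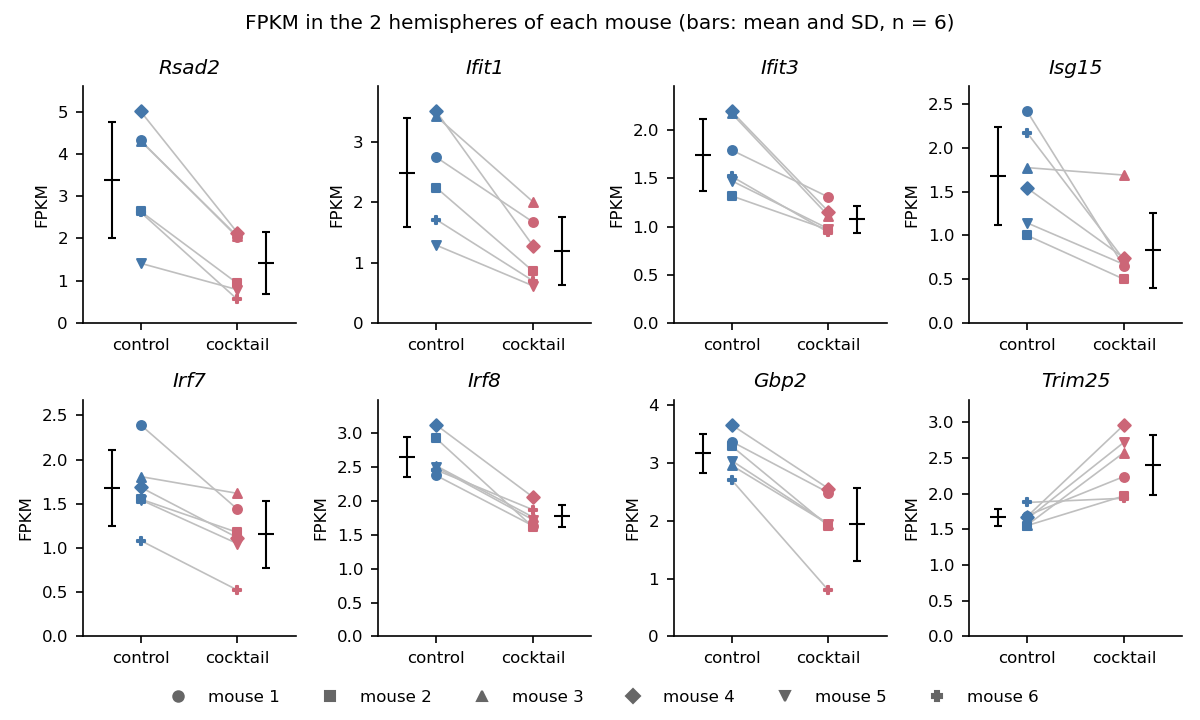
FPKM of the 7 genes called lower and of Trim25 in the control and cocktail hemisphere of each of the 6 mice (symbols, joined by lines), with mean and SD at the sides. Lines fall in all 6 mice for the 7 genes and rise in all 6 for Trim25, and mouse 3 stands out in Isg15, where its cocktail value of 1.69 FPKM is close to its control value of 1.77.

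Isg15, a ubiquitin-like protein that is attached to other proteins after interferon, was 2.42, 1, 1.77, 1.54, 1.14 and 2.17 FPKM in the control libraries of mice 1 to 6. In the cocktail libraries it was 0.646, 0.499, 1.69, 0.744, 0.668 and 0.722. Of the cocktail libraries 5 lay below every control library, and the value of mouse 3 lay among the controls. The log2 fold change was -0.55 (SE 0.113, limma adjusted p = 0.0338), on 12 to 64 reads per library. Isg15 passed the filter through its control libraries, with a mean of 1.67 ± 0.559 FPKM against 0.828 ± 0.43 in cocktail libraries, and without the filter it was not called (adjusted p = 0.138). Leaving out any of mice 1, 2, 4, 5 or 6 ended the call (adjusted p of 0.0808, 0.0899, 0.109, 0.055 and 0.0976), and leaving out mouse 1 gave -0.45. Over its alternatives the adjusted p ranged from 0.0153 to 0.146.

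Trim25, the ubiquitin and ISG15 ligase that modifies RIG-I, had the largest positive value of the list and did not pass the test. It was 1.55, 1.66 and 1.88 FPKM (lowest, median and highest) in control and 1.94, 2.41 and 2.97 FPKM in cocktail libraries. The groups did not overlap, and mouse 6 had the highest control and the lowest cocktail value. Its log2 fold change was 0.34 (SE 0.076, limma adjusted p = 0.0543), with an adjusted p of 0.02 without mouse 6 and of 0.0442 without a trend in the variance, the highest of its alternatives being 0.229. The other 5 genes of this group, Usp18, which removes ISG15, and Parp9, Parp14, Dtx3l and Trim30a, stayed below a mean of 1 FPKM.

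Guanylate-binding proteins are large GTPases that attack the membranes of intracellular pathogens. Gbp2 was 3.37, 3.29, 2.96, 3.66, 3.04 and 2.7 FPKM in the control libraries of mice 1 to 6 and 2.48, 1.91, 1.94, 2.56, 1.94 and 0.797 in the cocktail libraries. The groups did not overlap, and the cocktail hemisphere of mouse 6 was far below the others. The log2 fold change was -0.53 (SE 0.087, limma adjusted p = 0.00808), and the call held without mouse 6 or any other single mouse. It was lost without the filter (adjusted p = 0.0558) and without the mouse in the model (0.0895, the highest of its alternatives, with 0.00408 the lowest). Gbp3 was 1.3 ± 0.249 and 0.97 ± 0.273 FPKM, lower in all 6 mice, and did not pass (-0.23, adjusted p = 0.23).

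No gene of the MHC class I pathway passed the test: 3 of the 6 genes tested lay below 0 and 3 above, with a median of -0.03. By limma and by voom 0 were called. Over all loci limma called 0.274% lower and 1.22% higher, so 0 of 6 is near that share. At an unadjusted p under 0.05, 1 (Tap1) was lower, beside 2.8% of all loci. Tap1 and Psmb8 passed the filter through their control libraries. Under median-of-ratios scaling and quantile normalization 4 of the 6 lay below 0, because Tapbp, at 0, turned. B2m was 76.9 to 89.1 FPKM in control libraries and 67.2 to 95.0 after the cocktail, and it was lower in 3 mice and higher in 3. Its log2 fold change of -0.06 had a 95% confidence interval of -0.17 to 0.05, so that a fall of the size seen in Irf8 lies outside it. For H2-K1, at 8.72 to 12 FPKM in control and 9.24 to 13.5 in cocktail libraries, the value was 0.06 (-0.08 to 0.20). H2-D1 was 11 to 16.8 and 12.6 to 16 FPKM, with a value of 0.11 (-0.03 to 0.26), or 0.07 without mouse 2. Of the 50-base windows of H2-D1, 13.9% occur in another gene, as do 6.87% of those of H2-K1.

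Tap1, a subunit of the transporter that carries peptides into the endoplasmic reticulum, was 1.19 ± 0.189 FPKM in control and 0.96 ± 0.177 in cocktail libraries (-0.16, adjusted p = 0.486). Tapbp (tapasin), which holds class I molecules at that transporter, was 8.66 ± 0.857 and 8.67 ± 0.731 FPKM. Psmb8, a catalytic subunit of the immunoproteasome, was 1.1 ± 0.256 and 0.959 ± 0.248 FPKM, lower in all 6 mice but overlapping (-0.10, adjusted p = 0.756). Psmb9, another catalytic subunit, whose exons overlap those of Tap1 on the opposite strand, had 0 to 12 reads per library and a mean of 0.442 FPKM in control and 0.325 in cocktail libraries. Nlrc5, the activator of class I transcription, had means of 0.166 and 0.152 FPKM.

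Of the remaining 5 interferon-stimulated genes, Lgals3bp, a secreted binding partner of galectins, and Xaf1, an antagonist of inhibitors of apoptosis, were tested and 0 were called, with log2 fold changes of -0.10 and -0.01. The 20 genes below the filter had means of 0.0694 to 0.884 FPKM. In the fit without a filter 18 of the 20 lay below 0 and 0 were called by limma. The nearest to the threshold was Oasl1, of the oligoadenylate synthetase family, at 0.47, 1.06 and 1.27 FPKM (lowest, median and highest) in control and 0.183, 0.377 and 1.01 in cocktail libraries. It was lower in all 6 mice, with overlapping groups (log2 fold change -0.43, adjusted p = 0.0755 without the filter). Mx1, a dynamin-like GTPase that traps viral nucleocapsids, was also lower in all 6 mice, with means of 0.455 ± 0.184 and 0.231 ± 0.0892 FPKM (-0.23, adjusted p = 0.145 without the filter). The others are Ifih1, Ddx58, Dhx58, Zbp1, Oasl2, Oas2, Mx2, Usp18, Parp9, Parp14, Dtx3l, Trim30a, Gbp7, Psmb9, Nlrc5, Ifi35, Ifi44 and Sp100. At this depth, with 1 to 13 reads per library for Oas2 and 0 to 5 for Zbp1, small differences in these genes were not detectable.

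Most members were lower within each single mouse. Of the 53 genes, 30 to 39 were lower in the cocktail hemisphere in each of the 6 mice, and the share of all loci lower in each mouse was not counted. The median within-mouse log2 difference of the 53 was -0.14 to -0.06. For the 33 tested it was -0.14 to -0.05, beside -0.05 to 0.10 over all loci tested. The median over all loci was itself below 0 in mice 4, 5 and 6 (-0.03, -0.05 and -0.02). The median of the 7 called genes, which were chosen on this contrast, was -0.68 to -0.36. Of the 33 tested, 11 were lower in all 6 mice (beside 2.66% of all loci) and 2, Irf5 and Trim25, were higher in all 6 (beside 3.64%). The 11 comprise the 7 called genes with Irf1, Stat2, Gbp3 and Psmb8. Of these, Isg15, Gbp3 and Psmb8 passed the filter through their control libraries, with cocktail means under 1 FPKM, so the filter itself favours them. For each of these 13 genes an exact permutation test that flips the signs of the 6 differences (two-sided) had p = 0.03125. That is the lowest value 6 mice permit, and it was not adjusted for the number of genes. Any gene with 6 differences of 1 sign gets this value, so the test adds nothing to the counts above.

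**Figure D5:**
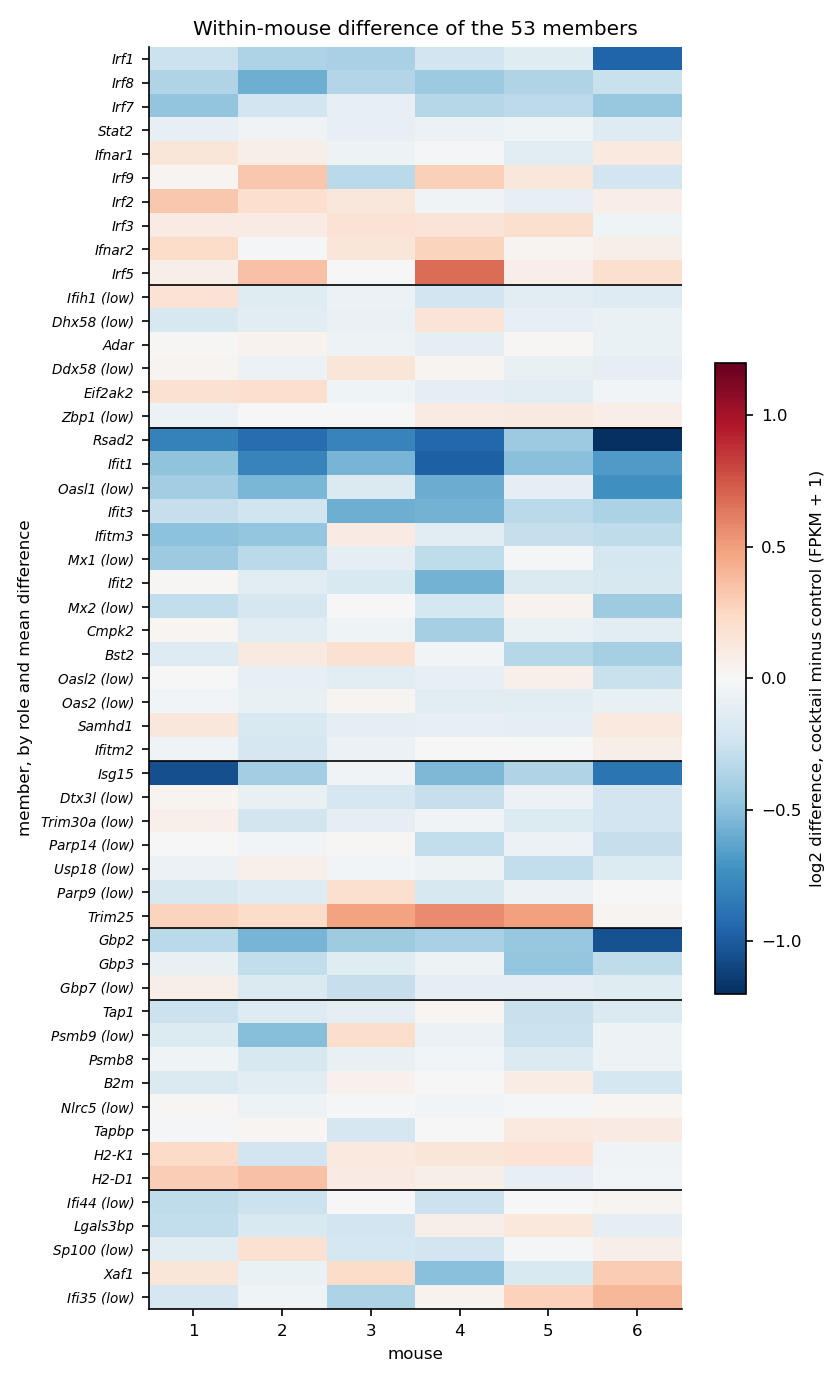
Within-mouse difference in log2(FPKM + 1), cocktail minus control, of the 53 members (lines of the grid, grouped by role and sorted by mean) in the 6 mice, with blue for lower and red for higher in the cocktail and with genes under 1 FPKM named as low. Rsad2, Ifit1, Irf8, Irf7 and Gbp2 are blue in all 6 columns, the darkest fields are those of Rsad2 and Gbp2 in mouse 6, Ifit1 in mouse 4 and Isg15 in mouse 1, and the MHC class I block is pale with mixed colours.

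The wider pathway was read from a second list of 113 genes outside the 53, of which 111 were in the files and 57 were tested. Of these, 4 were called lower and 1 higher, beside 0.274% and 1.22% of all loci, and the median log2 fold change was 0.01. A single gene called higher among 57 is near the share over all loci. Without the filter 102 could be fitted, 6 were called lower and 1 higher, beside 0.143% and 0.561% of all loci, and the median was -0.02. With the filter, the 4 lower genes were all among the 17 interferon-stimulated genes tested, where 13 lay below 0 and the median was -0.16. Without the filter 36 of 43 such genes lay below 0, with a median of -0.08, and the 6 called were Cxcl10 and Gbp5 with 4 genes whose mean was under 1 FPKM (Cxcl11, Iigp1, Gbp4 and Gbp6, named after their values were seen), while Cd274 and Ifi30 were not called (adjusted p of 0.133 and 0.141). Cxcl10, the chemokine that attracts activated T cells, was 12.5, 15.5 and 22.1 FPKM (lowest, median and highest) in control and 3.28, 5.36 and 10.3 in cocktail libraries, without overlap (-1.40, limma adjusted p = 1.75e-05). Gbp5, another guanylate-binding protein, was 1.9 ± 0.494 and 1.05 ± 0.345 FPKM (-0.50, adjusted p = 0.00109). It was still called without any single mouse.

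Cd274, which encodes the checkpoint ligand PD-L1, was 2.15 ± 0.377 FPKM in control and 1.35 ± 0.389 in cocktail libraries (-0.43, limma adjusted p = 0.035). Its call was lost without mouse 2, 4, 5 or 6 (adjusted p of 0.146, 0.0981, 0.123 and 0.0896). Ifi30, a lysosomal thiol reductase of antigen processing, was 5.85 ± 0.507 and 4.2 ± 0.764 FPKM, without overlap (-0.41, adjusted p = 0.0337), and was called after leaving out mouse 5 but not after leaving out any other mouse (0.0521 to 0.143 without mouse 1, 2, 3, 4 or 6). Both genes were lower in all 6 mice.

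Of the 13 other receptor and JAK-STAT genes tested, Irf2bp2, a corepressor that binds Irf2, was called higher, at 24.8, 28.6 and 29.9 FPKM (lowest, median and highest) in control and 29.8, 35.0 and 38.7 in cocktail libraries (0.30, SE 0.055, limma adjusted p = 0.015). Its lowest cocktail value lay just below the highest control value. Without mouse 1 the log2 fold change was 0.25 and the gene was still called (limma adjusted p = 0.00798). Without mouse 2, 3 or 4 its adjusted p was 0.0634, 0.0564 and 0.0638. The receptor genes Ifngr1 and Ifngr2 had log2 fold changes of 0.01 and 0.03. Of the 10 sensing adaptors and the 17 other antigen presentation genes tested, MHC class II genes included, 0 were called by limma, with 1 (Tlr7, log2 fold change -0.22) and 2 (Tap2, -0.19, and Tapbpl, 0.13) at an unadjusted p under 0.05, where 2.8% of all loci lay lower and 5.24% higher. These 3 names were chosen after their values were seen.

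Markers of the cell types in the tissue were read from the same fit, and 0 of the 62 markers tested were called. Over all loci 0.274% were called lower and 1.22% higher, so 0 of 62 is near that share. The count does not show that the cell types were unchanged. The 12 microglia and macrophage markers had log2 fold changes of -0.20 (Cx3cr1) to 0.19 (Siglech), 4 below 0 and 8 above, with a summed level of 141 to 158 FPKM in control and 138 to 173 in cocktail libraries. At an unadjusted p under 0.05, Sall1 was lower and Trem2 and Siglech higher, beside 2.8% and 5.24% of all loci. Irf8, at -0.39, lay below each of these markers, but it was set beside them after being called in this same contrast. The 8 endothelial markers lay between -0.12 and 0.11 and summed to 68.1 to 79.0 FPKM in control and 63.6 to 79.7 in cocktail libraries. All 6 oligodendrocyte markers (0.07 to 0.16) and all 6 inhibitory neuron markers (0.03 to 0.10) lay above 0, as did 5 of 6 astrocyte markers, while 5 of 8 excitatory neuron markers lay below 0. Of 11 blood leukocyte markers 10 were in the files, and their sum was 0.941 to 1.74 FPKM in control and 0.912 to 1.51 in cocktail libraries, with the T cell genes Cd3e and Cd3g, the B cell gene Ms4a1 and the killer cell gene Nkg7 at 0 in all 12. The 4 meningeal and choroid plexus markers tested all lay above 0 (0.07 to 0.26, median 0.18). At an unadjusted p under 0.05, 3 of them were higher, beside 5.24% of all loci. Their list summed to 11.4 to 17.8 FPKM in control and 14.3 to 19.2 in cocktail libraries. The part of these shifts in the falls described above was not tested.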

How the data were processed

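The authors sequenced poly-A RNA as single reads, removed ribosomal reads with BWA (0.6.1), aligned the rest to mm10 with TopHat (1.4.1), keeping 1 placement per read, and estimated FPKM per RefSeq gene with Cufflinks (1.3.0) with bias correction. The FPKM values, with a confidence interval and status for each locus, are those deposited by the authors and were used without further scaling. Reads behind a value were recovered from its interval, and 83.6% of 35942 values under 20 reads were whole to within 0.05. Control libraries held 10600305 to 19768349 reads and cocktail libraries 13539550 to 17506846. Counting error is therefore large for genes with few reads. A deposited table of the authors' DESeq2 (1.6.3) comparison holds mean counts, fold changes and p-values, and was not used.

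Loci with a mean of at least 1 FPKM (12032 of 20989) were compared on log2(FPKM + 1) by limma (version 3.58.1, R 4.3.3). The model held treatment and mouse, the variance followed a trend, and p-values were adjusted over all loci tested by the Benjamini-Hochberg method. Adjusted p-values are from this fit unless an alternative is named. The labels name the mouse of each library, which pairs the hemispheres. Deviations from the group mean correlated at 0.216 to 0.406 in the 6 pairs, against a median of -0.07 for the 30 pairs of libraries from different mice. Deviations within a group cancel out, so a positive correlation within mice forces a negative average between mice, and -0.07 is not an independent baseline. Libraries of 1 group differed by more than sampling noise. The alternatives dropped the mouse, changed the pseudocount to 0.1, the filter or the scaling, used voom, or left out 1 mouse at a time.

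The members and lists were chosen with earlier results of these data known. Genes named are those called, the receptors and factors, the antigen processing group, the 5 largest rises and falls and the 3 highest members, with called genes and the interferon gamma receptor genes of the second list. The result of 1 gene of that list is not reported here. Other members were named as examples after their values were seen. Exon overlaps and shared 50-base windows come from GENCODE M21, locus coordinates from the files, counted from 1. Promoters come from RefSeq, and 9 members had no entry in that table. Plots were made in Python 3.11.15 using matplotlib 3.10.9.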

Additional observations from a re-analysis of the deposited data

Results flagged for a closer look

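In 5 of 93 groups of 6 values examined for the named genes, 1 value lay far from the other 5. Chance flags about 1 in 20 groups, which here is 4.65.

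The within-mouse log2 difference of Irf1 was -0.96 in mouse 6, where the other mice had -0.39 to -0.15. The cocktail hemisphere of mouse 3 had an Isg15 level of 1.69 FPKM, while the other 5 cocktail hemispheres had 0.499 to 0.744. For Gbp2 the cocktail hemisphere of mouse 6 was at 0.797 FPKM and the other 5 at 1.91 to 2.56, and its within-mouse log2 difference in that mouse was -1.04, against -0.56 to -0.33. Irf2bp2 had a within-mouse log2 difference of 0.56 in mouse 1, whose control library stood apart, against 0.15 to 0.30 in the others.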

How the results depend on the processing

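Of 7 members called, 2 were called without the mouse as a block for the paired hemispheres (88 loci called against 180), 4 without the filter on low values and 0 with a filter at 5 FPKM, which leaves 13 members in the test, none of the 7 among them, and moves their median to -0.029. With that filter 94.7% of calls were higher, against 81.7%. Leaving out 1 mouse at a time gave 4 to 6 members called, 104 to 181 loci called and medians of -0.086 to -0.074, with the fewest calls without mouse 4. The other settings gave 5 to 8 members. Without the block Rsad2, Ifit1, Gbp2, Isg15, Irf7, Gbp5, Cd274 and Ifi30 were not called, with the same fold changes. The spread between mice then enters the error, and its part in these lost calls was not tested. For the other lost calls the cause was not tested either.

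The 7 called members kept their sign in every alternative that included them, which was largely fixed in advance. Each was lower in all 6 mice, so leaving out 1 mouse could not turn it. Dropping the mouse from the model, the filter or the variance trend leaves the fold change as it is. Values near 0 turned. With voom, Irf9 was -0.016, Tapbp -0.053, B2m 0.0090, Ifngr1 -0.011 and Ifngr2 -0.015. With quantile normalization, Tapbp was -0.0083 and Ifngr1 -0.0032, and under the median-of-ratios scaling Tapbp was -0.0047. Leaving out 1 mouse gave -0.020 to 0.11 for Irf9 (below 0 without mouse 2 or 4), -0.020 to 0.044 for Tapbp (mouse 2, 5 or 6), -0.0042 to 0.050 for Ifnar1 (mouse 1), -0.019 to 0.036 for Ifngr1 (mouse 1 or 5) and -0.016 to 0.069 for Ifngr2 (mouse 4).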
